A study of Mus musculus with 49 samples.

Results

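Cholinergic interneurons are the acetylcholine-releasing neurons of the striatum. Genes of these cells were followed through D1- and D2-MSN RNAseq from the mouse nucleus accumbens (NAc). The 6 genes, of 52636 in the count table, were chosen by name, with earlier results of these data known: Chat, Slc5a7, Slc18a3, Slc17a8, Lhx8 and Gbx2. All 6 were found in the table. In all libraries, C57BL/6J mice carried a label driven by Drd1 or Drd2. Nuclear-FACS used GFP-labelled nuclei from frozen NAc (Drd1-cre or Drd2-cre x Thy1-loxPSTOPloxP-EGFP-F, 6 D1 and 5 D2 libraries). Whole cell-FACS used papain-dissociated fresh NAc with a cytoplasmic fluorophore (8 D1 and 6 D2 libraries). RiboTag precipitated HA-tagged Rpl22 from fresh NAc (Drd1-cre or Drd2-cre x Rpl22-loxPexon4loxP-exon4-HA), with 6 D1 and 6 D2 libraries labelled male and 5 D1 and 5 D2 labelled female. Nuclear and whole cell libraries were all labelled male, and the age of the mice is not given in the sources used here. A label under Drd2 marks every cell in which that promoter is active, not only MSNs.

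Cholinergic interneurons are few among striatal cells but tonically active, and their axons cover the striatum densely. They make acetylcholine from choline taken up at the terminal, load it into vesicles and release it onto muscarinic and nicotinic receptors of MSNs and of dopamine axons. They carry the dopamine receptor Drd2, so that a Drd2-cre label may include them. Chat encodes choline acetyltransferase, the enzyme that makes acetylcholine. Slc5a7 encodes the high-affinity choline transporter, Slc18a3 the vesicular acetylcholine transporter, and Slc17a8 the vesicular glutamate transporter VGLUT3, with which these neurons also release glutamate. Lhx8 and Gbx2 encode homeobox transcription factors of the lineage.

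All 6 genes are protein-coding and lie on the minus strand of GRCm38. Chat (ENSMUSG00000021919) spans chr14:32408203-32465989, and Slc18a3 (ENSMUSG00000100241, chr14:32462438-32464850) lies wholly inside it, starting 1139 bases after the Chat start. The antisense gene Gm2990 (chr14:32465042-32483548) overlaps the Chat start on the plus strand. Slc5a7 (ENSMUSG00000023945) lies at chr17:54273590-54299034, Slc17a8 (ENSMUSG00000019935) at chr10:89574020-89621253 and Lhx8 (ENSMUSG00000096225) at chr3:154306294-154330659. Gbx2 (ENSMUSG00000034486, chr1:89927956-89931179) is overlapped on the plus strand by the processed transcript D130058E05Rik. Fragments were counted over whole gene bodies without strand and for every gene they overlapped, so a Slc18a3 fragment was also a Chat fragment, and antisense fragments could not be told from sense ones.

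**Figure D1:**
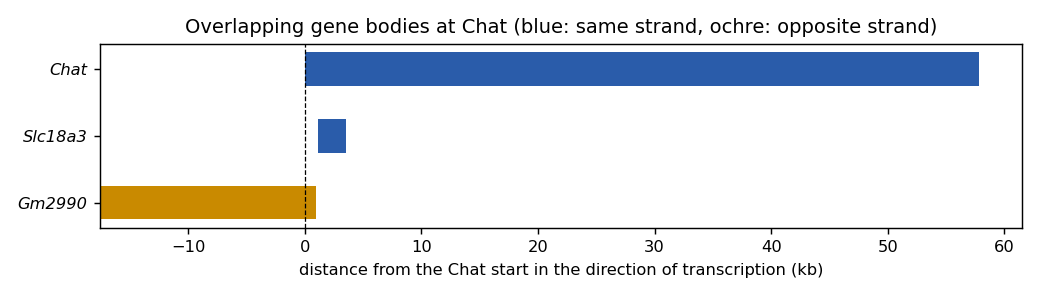
Gene bodies at the Chat locus, drawn as distance in kb from the Chat start in the direction of transcription. Slc18a3 sits inside the first part of Chat on the same strand, and Gm2990 overlaps the Chat start from the opposite strand.

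The RefSeq promoters (GRCm38.p6, 250 bases before to 50 after the start, minus strand, 5′ to 3′) of the 3 genes for making, taking up and packaging acetylcholine are shown because, of the members tested, these genes differed most between RiboTag D2- and D1-MSNs. Every CG dinucleotide is in capitals. They come from chr14:32465860-32466159 (Chat), chr14:32464801-32465100 (Slc18a3) and chr17:54298985-54299284 (Slc5a7).
Chat: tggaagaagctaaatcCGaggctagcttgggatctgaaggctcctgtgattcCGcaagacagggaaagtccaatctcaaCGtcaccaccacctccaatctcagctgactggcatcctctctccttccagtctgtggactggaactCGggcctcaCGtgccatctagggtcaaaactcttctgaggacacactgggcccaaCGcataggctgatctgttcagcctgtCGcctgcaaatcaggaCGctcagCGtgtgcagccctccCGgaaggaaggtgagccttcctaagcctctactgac
Slc18a3: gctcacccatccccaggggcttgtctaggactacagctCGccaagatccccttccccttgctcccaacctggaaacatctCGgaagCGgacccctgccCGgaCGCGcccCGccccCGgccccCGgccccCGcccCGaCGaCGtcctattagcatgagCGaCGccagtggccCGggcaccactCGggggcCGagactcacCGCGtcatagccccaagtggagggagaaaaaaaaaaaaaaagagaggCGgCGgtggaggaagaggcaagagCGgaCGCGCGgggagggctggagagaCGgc
Slc5a7: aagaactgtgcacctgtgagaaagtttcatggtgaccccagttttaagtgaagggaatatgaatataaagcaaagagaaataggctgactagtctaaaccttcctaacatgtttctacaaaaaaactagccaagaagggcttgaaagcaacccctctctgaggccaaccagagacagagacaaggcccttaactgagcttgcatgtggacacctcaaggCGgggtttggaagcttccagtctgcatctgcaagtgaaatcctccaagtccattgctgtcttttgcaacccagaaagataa
The Slc18a3 promoter held 27 CG dinucleotides, that of Chat 10 and that of Slc5a7 1, beside a median of 7 over 32851 promoters. Their GC content was 67%, 55.7% and 44.7%, and the median over all promoters was 52.7%. The 3 promoters thus spanned the range from CG-rich to CG-poor.

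The homeobox core motif TAATTA was searched on the same letters (it reads the same on both strands), since Lhx8 and Gbx2 encode homeobox proteins. It was found in 1738 of 32851 promoters (5.29%). Of the 7 promoters listed for the 6 members, 1 held it, the downstream start of Slc17a8 at chr10:89599766-89600065, shown with the motif in capitals. A match is a description of letters and not of a bound site.
Slc17a8, downstream start: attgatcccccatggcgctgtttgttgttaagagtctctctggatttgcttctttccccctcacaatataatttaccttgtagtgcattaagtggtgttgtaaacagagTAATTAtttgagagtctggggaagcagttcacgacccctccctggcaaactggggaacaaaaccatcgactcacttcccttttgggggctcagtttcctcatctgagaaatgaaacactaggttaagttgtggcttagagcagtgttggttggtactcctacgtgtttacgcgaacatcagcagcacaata

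Total counts ranged from 3701255 to 68777008 per library, and in RiboTag libraries the 10 highest genes held 84.9% to 88.3% of all counts. Drd1 and Drd2 separated the labels in whole cell libraries, where Drd2 was at 12.6 to 47.2 CPM in D1 and at 513 to 3118 CPM in D2 libraries (CPM, counts scaled to the TMM effective library size), and in RiboTag libraries. In nuclear libraries Drd2 did not pass the test (log2 fold change 0.57, SE 0.33, adjusted p = 0.17 by edgeR). There, 9 of 10 MSN markers, Penk and Adora2a among them, were called higher in D1. Of all 30791 genes tested there, 20.6% were called higher in D1 and 5.60% higher in D2. Of 12 RiboTag libraries labelled male, 6 (D1 numbers 1, 2, 3 and 4 and D2 numbers 2 and 6) had more Xist than Ddx3y counts, as did all 10 labelled female and 1 nuclear D2 library (28 against 24 counts). RiboTag sex is therefore given as labelled, and the male fold changes of Chat, Slc5a7 and Slc17a8 are also given without these 6 libraries. The other male values rest on all 12. Background was read from 1429 olfactory and vomeronasal receptor genes, which these cells should lack, as counts per kilobase of gene span. At that rate, background over all gene bodies would make up 32.5% to 52.3% of the counts in nuclear D2, 0.578% to 22.2% in nuclear D1, 8.35% to 52.5% in whole cell and 0.0257% to 0.0629% in RiboTag libraries.

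All the acetylcholine genes were higher in RiboTag D2- than D1-MSNs in males. Chat had 8 to 16 fragments (median 10) in the 6 D1 and 37 to 80 (median 61.5) in the 6 D2 libraries. Slc5a7 had 1 to 19 (median 9.5) in D1 and 47 to 87 (median 73.5) in D2. Slc18a3 had 1 to 6 (median 2) in D1 and 7 to 32 (median 18.5) in D2. None of these 3 genes overlapped between the cell types in any of the 12 libraries. The share of all genes without such overlap is not given here, in this or any other comparison. The level of Chat was 0.352 ± 0.137 CPM (SD, n = 6) in D1 and 1.84 ± 0.230 CPM (SD, n = 6) in D2 libraries, and that of Slc5a7 was 0.287 ± 0.158 and 2.11 ± 0.240 CPM (SD, n = 6).

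The comparison asked which genes differ between D2- and D1-MSNs in RNA bound to tagged ribosomes. A gene was called at an adjusted p of at most 0.05 and an absolute log2 fold change above 0.38 in edgeR's quasi-likelihood test, with positive values for higher in D2. Of the 6 members, 3 passed the low-count filter (above 1 CPM, scaled by DESeq2's size factors, in at least 2 libraries), and all 3 were called higher in D2, beside 1.40% of the 10677 genes tested (3.11% were called higher in D1). On the TMM scale, D1 male libraries reached at most 0.568, 0.469 and 0.949 CPM of Chat, Slc5a7 and Slc17a8. These genes thus passed mainly through D2 libraries, which favours calls higher in D2. The log2 fold change was 2.42 (SE 0.20, adjusted p = 9.01e-09) for Chat, 2.81 (SE 0.24, adjusted p = 1.42e-08) for Slc5a7 and 1.14 (SE 0.24, adjusted p = 0.0031) for Slc17a8. The median over all genes tested was 0.00. Without the 6 libraries with more Xist than Ddx3y, which left 2 D1 and 4 D2 libraries, the values were 2.03, 2.80 and 1.45 and the adjusted p by edgeR was 0.000244, 1.81e-05 and 0.0382. With fragments on Slc18a3 taken out of Chat, where they were 16.7% to 40% of the D2 count, the Chat value was 2.39.

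Slc17a8, of vesicular glutamate transport, and the lineage factors had lower fold changes in males, an order that was not tested. Slc17a8 had 9 to 27 fragments (median 19.5) in D1 and 27 to 70 (median 41.5) in D2 libraries, so that the highest D1 count equalled the lowest D2 count, while the groups did not overlap in CPM. Lhx8 had 3 to 11 fragments (median 5) in D1 and 9 to 26 (median 22.5) in D2, which overlapped in counts and not in CPM, and Gbx2 0 to 3 (median 0.5) and 1 to 6 (median 3.5). Gbx2 was thus near the level of single fragments in both cell types.

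Slc18a3 and Lhx8 entered the fit once genes with at least 10 counts in at least 2 libraries were kept, and then 5 of 5 members tested were called higher in D2 males, beside 1.19% of 14831 genes. In D1 males, Slc18a3 had at most 6 fragments and Lhx8 a median of 5. Both thus met this count through D2 libraries, which favours calls higher in D2. The log2 fold change was 2.45 (SE 0.40, adjusted p = 0.000127) for Slc18a3 and 1.74 (SE 0.32, adjusted p = 0.000441) for Lhx8. Gbx2 did not reach this count, and without any filter its value was 1.92 (SE 0.75) with an adjusted p of 0.17. In exact two-sided permutation tests over the libraries (24 tests in all, unadjusted, on log2 CPM with a prior count of 1), p was 0.00216 for each of the other 5 members, the smallest that 6 against 6 libraries can give, and 0.00649 for Gbx2.

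**Figure D2:**
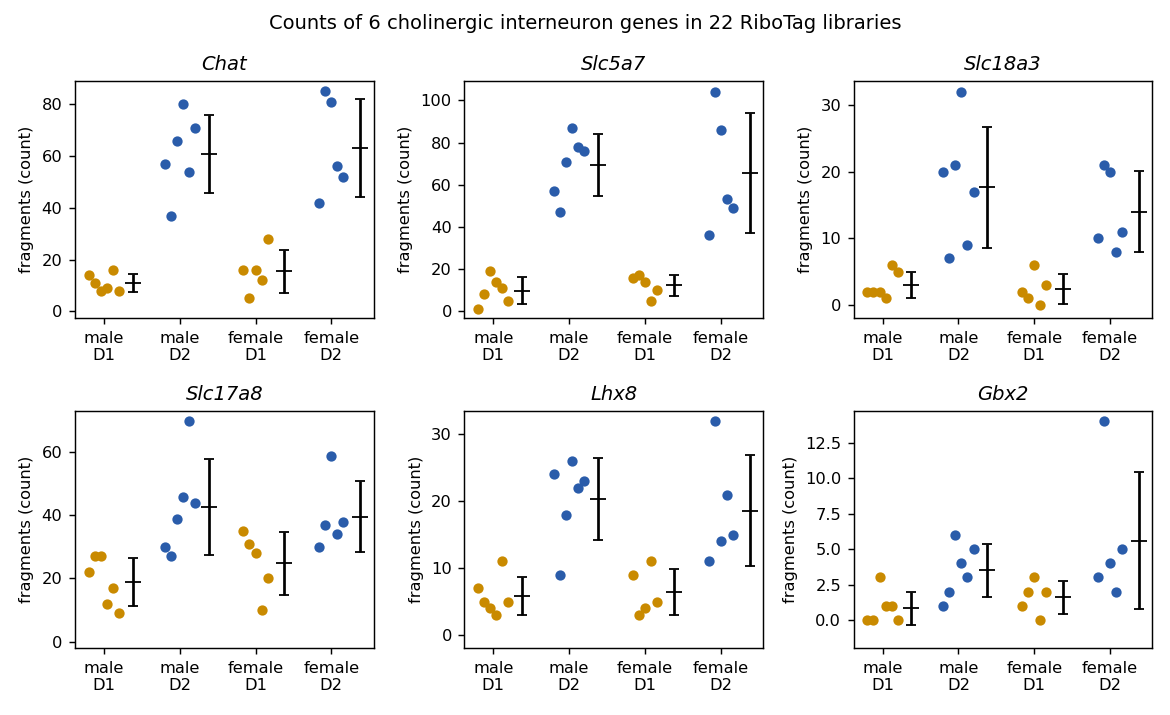
Fragments counted on each member (y axis) in the 22 RiboTag libraries, by labelled sex and cell type. Points are libraries, ochre for D1 and blue for D2, and the bar is the mean ± SD. Chat, Slc5a7 and Slc18a3 of D2 libraries lie above all D1 libraries in both sexes, while counts of Slc17a8, Lhx8 and Gbx2 touch or overlap in both sexes.

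RiboTag libraries labelled female gave the same order of cell types for the acetylcholine genes. Chat had 16, 5, 16, 12 and 28 fragments in the 5 D1 libraries and 42, 85, 81, 56 and 52 in the 5 D2 libraries. Slc5a7 had 16, 17, 14, 5 and 10 in D1 and 36, 104, 86, 53 and 49 in D2. Slc18a3 had 2, 1, 6, 0 and 3 in D1 and 10, 21, 20, 8 and 11 in D2. The groups of these 3 genes did not overlap. Of the 3 members tested, Chat (log2 fold change 1.92, SE 0.30, adjusted p = 0.000618) and Slc5a7 (2.28, SE 0.35, adjusted p = 0.000594) were called higher in D2, beside 0.960% of the 10941 genes tested (1.59% were called higher in D1). D1 female libraries reached at most 0.662 CPM of Chat and 0.492 CPM of Slc5a7, so both passed the filter mainly through D2 libraries.

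Slc17a8 did not pass in females. It had 35, 31, 28, 10 and 20 fragments in D1 and 30, 37, 59, 34 and 38 in D2, and its log2 fold change was 0.53 (SE 0.27, adjusted p = 0.39). Lhx8 had 9, 3, 4, 11 and 5 fragments in D1 and 11, 32, 14, 21 and 15 in D2. The ranges of Slc17a8 overlapped, and those of Lhx8 met at 11 fragments and overlapped in CPM. Gbx2 had 1, 2, 3, 0 and 2 fragments in D1 and 3, 14, 4, 2 and 5 in D2. With the filter of 10 counts, Slc18a3 was called (2.38, SE 0.53, adjusted p = 0.0125) and Lhx8 was not (1.42, SE 0.42, adjusted p = 0.0822), beside 0.788% of 15097 genes called higher in D2. Both genes met this count through D2 libraries here as well.

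The exact two-sided permutation p in females was 0.00794 for Chat, Slc5a7 and Slc18a3, the smallest that 5 against 5 libraries can give. It was 0.0397 for Lhx8, 0.0556 for Gbx2 and 0.127 for Slc17a8. The number 2 D2 library had the most fragments of Chat, Slc5a7, Slc18a3, Lhx8 and Gbx2 among the 5, while its Slc17a8 count of 37 was the group median.

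The difference between labelled sexes was tested as an interaction over all 22 RiboTag libraries. The D2 to D1 difference was lower in females by 0.50 on the log2 scale for Chat (SE 0.39, adjusted p = 0.85), by 0.54 for Slc5a7 (SE 0.49, adjusted p = 0.88) and by 0.61 for Slc17a8 (SE 0.39, adjusted p = 0.80). None of the 3 passed, and neither did any of the 11133 genes tested, by edgeR (753 had an unadjusted p under 0.05) or by DESeq2 (654). Within D2 libraries, females against males differed by -0.16 (SE 0.21) for Chat, -0.29 (SE 0.24) for Slc5a7 and -0.35 (SE 0.25) for Slc17a8, all with an adjusted p of 0.83 or more by edgeR. Since 6 libraries labelled male went against the label, these values compare labels. Averaged over labelled sex, the D2 to D1 log2 fold change was 2.17 (SE 0.18) for Chat, 2.55 (SE 0.23) for Slc5a7 and 0.84 (SE 0.19, adjusted p = 0.00316 by edgeR) for Slc17a8.

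Members did not vary together within groups in one common way. Over the 22 RiboTag libraries, with the 4 group means of log2 CPM subtracted, Pearson's r was 0.63 between Chat and Lhx8, 0.57 between Chat and Slc18a3 and 0.64 between Slc5a7 and Gbx2. It was -0.03 between Chat and Slc5a7, which had r = 0.81 before the group means were subtracted. These values are descriptions over libraries that share cell type and depth, and Chat and Slc18a3 also share fragments.

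**Figure D3:**
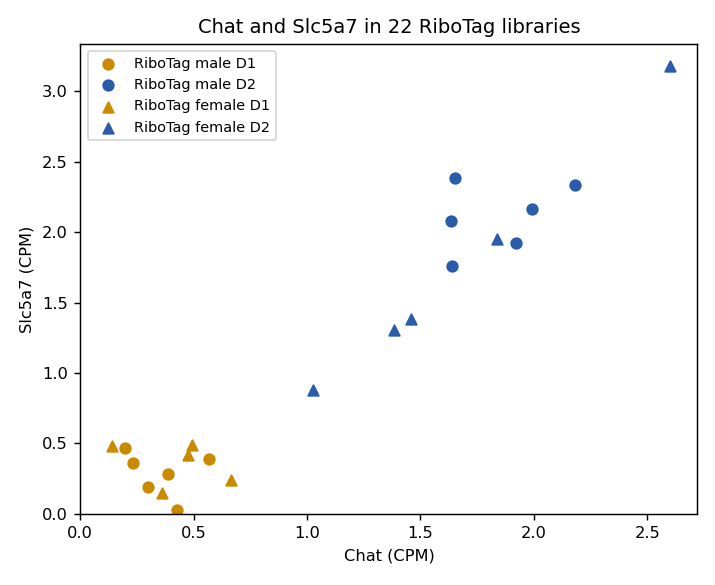
Slc5a7 against Chat in CPM in the 22 RiboTag libraries. Circles are libraries labelled male and triangles female, ochre D1 and blue D2. D1 libraries reach 0.662 CPM of Chat and 0.492 CPM of Slc5a7, and D2 libraries start at 1.02 and 0.878 CPM.

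Per kilobase of summed exons, Chat and Slc5a7 led in D2 and Slc17a8 in D1 RiboTag libraries. In males, D2 levels were 0.390 ± 0.0489 FPKM for Chat, 0.373 ± 0.0425 for Slc5a7, 0.276 ± 0.0917 for Slc17a8, 0.242 ± 0.0627 for Lhx8, 0.214 ± 0.0838 for Slc18a3 and 0.0471 ± 0.0204 for Gbx2 (SD, n = 6; FPKM, CPM per kilobase). Neighbours in this order overlapped in range except Slc18a3 and Gbx2. In D1 males, Slc17a8 was highest at 0.125 ± 0.0503 FPKM, Chat was at 0.0748 ± 0.0291 and Slc5a7 at 0.0508 ± 0.0281 (SD, n = 6), and all neighbours overlapped. In D2 females, the order was the same and all neighbours overlapped, with 0.353 ± 0.127 FPKM for Chat and 0.308 ± 0.158 for Slc5a7 (SD, n = 5), and in D1 females Slc17a8 led again at 0.151 ± 0.0669 FPKM (SD, n = 5). Drd2 was at 16.2 to 21.6 FPKM in the same D2 male libraries, far above every member. In bulk libraries, fewer cells of a type and less RNA per cell cannot be told apart.

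Against the receptor background, RiboTag D2 counts stood far above, and whole cell and nuclear D2 counts close to it. Nuclear D1 libraries ranged widely, with Chat at 2.12 to 13.1 times, Slc5a7 at 1.07 to 11.9 times and Slc18a3 at 0.816 to 72.0 times the expected count, and overlapped RiboTag D1 libraries. In RiboTag D2 males, the count was 87.2 to 139 times the expected background count for Chat, 219 to 381 times for Slc5a7 and 348 to 1228 times for Slc18a3. In D1 males, the ratios were 11.7 to 34.9, 4.06 to 63.1 and 40.8 to 313. D1 males thus held these transcripts above this background as well, though 1 fragment was enough for the lowest of these ratios. In whole cell libraries, Chat was at 1.50 to 2.48 times background in D1 and 2.34 to 4.63 in D2, and Slc5a7 at 1.01 to 1.72 in D1 and 0 to 1.96 in D2.

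**Figure D4:**
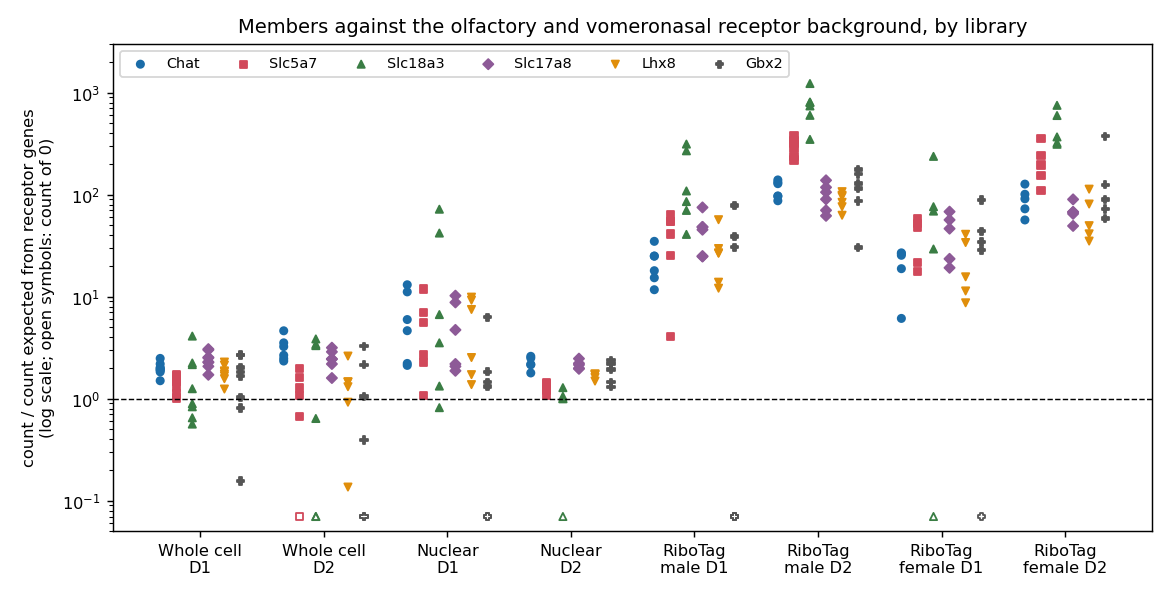
Count of each member divided by the count expected from receptor genes per kilobase (log scale), by library and group. Open symbols at the bottom are counts of 0, and the dashed line marks a ratio of 1. Whole cell and nuclear D2 libraries lie below 5 for every member, RiboTag D2 libraries lie above 30, and nuclear D1 libraries spread from 0 to 72.0.

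In whole cell-FACS, no member was called. Chat was at 12.1 to 38.9 CPM (median 22.3) in the 8 D1 and at 18.5 to 40.5 (median 29.9) in the 6 D2 libraries. Slc5a7 was at 4.11 to 11.3 CPM (median 6.66) in D1 and at 0 to 10.8 (median 5.12) in D2, and Slc17a8 at 15.8 to 36.4 (median 19.4) and 6.85 to 31.6 (median 24.0). The ranges of all 3 overlapped. All 6 members were tested and 0 were called by edgeR or by DESeq2 (0 had an unadjusted p under 0.05 by edgeR), beside 0.0569% of the 33421 genes called higher in D2 and 0.0479% called higher in D1.

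The whole cell log2 fold changes were 0.32 (SE 0.26) for Chat, -0.47 (SE 0.56) for Slc5a7, 0.42 (SE 0.94) for Slc18a3, -0.16 (SE 0.30) for Slc17a8, -0.51 (SE 0.48) for Lhx8 and -0.42 (SE 0.96) for Gbx2, each with an adjusted p of 1.00. The exact permutation p lay between 0.0942 (Lhx8) and 0.581 (Slc18a3). D2 libraries 1 and 5 had no Slc18a3 and no Gbx2 fragment, and library 1 had no Slc5a7 and 3 Lhx8 fragments. Without these 2 libraries, Slc17a8 was at 0.18 and Gbx2 at 0.16, the other sign, and Chat at 0.52 (SE 0.22, adjusted p = 0.38 by edgeR). A miss of the threshold does not show equal levels.

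In nuclear-FACS, Slc17a8 was the member called. It was at 6.41 to 14.0 CPM (median 7.58) in the 6 D1 libraries and at 19.3, 17.3, 15.5, 20.6 and 18.9 CPM in the 5 D2 libraries, without overlap. Its log2 fold change was 1.02 (SE 0.24, adjusted p = 0.00948 by edgeR), beside a median of 0.26 over the 30791 genes tested, of which 5.60% were called higher in D2 and 20.6% higher in D1. Chat was at 10.5 to 29.8 CPM (median 11.2) in D1 and at 21.2, 20.5, 24.2, 25.5 and 24.4 in D2, with a log2 fold change of 0.62 (SE 0.28, adjusted p = 0.0986 by edgeR). D1 library 6, with 29.8 CPM, lay above all D2 libraries, and without it Chat was called (0.99, adjusted p = 0.00704 by edgeR).

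Slc5a7 was at 2.88 to 7.57 CPM (median 4.54) in nuclear D1 and at 4.57 to 6.42 in D2 libraries, which lay inside the D1 range. Its log2 fold change was 0.33 (SE 0.30), and those of Lhx8 and Gbx2 were 0.64 (SE 0.29) and 1.57 (SE 0.79), with an adjusted p between 0.10 and 0.37 by edgeR. Slc18a3 was at -1.51 (SE 0.82, adjusted p = 0.15 by edgeR), and D1 libraries 1 and 5 had 2.68 and 3.16 CPM (54 and 5 fragments) against at most 0.517 in D2. The exact permutation p was 0.00433 for Slc17a8, 0.0152 for Gbx2, 0.0216 for Lhx8 and 0.0281 for Chat. With DESeq2's size factors, the median over all genes moved to 0.56, the share of calls that were higher in D2 from 21.3% to 48.6%, and Chat (0.92) and Lhx8 (0.94) were also called.

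The receptor background moved with cell type in nuclear libraries, from 0.0493 to 7.48 counts per kilobase in D1 and from 0.977 to 15.7 in D2. Nuclear D2 libraries had 1.97 to 2.47 times the expected background count for Slc17a8, 1.79 to 2.60 for Chat and 1.09 to 1.45 for Slc5a7. D1 libraries 1, 2 and 5 had 5.97 to 13.1 times background for Chat, and the others 2.12 to 4.64. With the expected background count subtracted, the log2 ratio of group means moved from 1.04 to 0.75 for Slc17a8, from 0.63 to 0.18 for Chat, from 0.33 to -1.26 for Slc5a7 and from 0.62 to -0.12 for Lhx8. Without D1 libraries 1, 2 and 5, Slc17a8 remained called (0.69, SE 0.21, adjusted p = 0.0313 by edgeR). The part of background in the nuclear values was not tested further. In RiboTag males, subtraction moved Chat from 2.38 to 2.44, Slc5a7 from 2.88 to 2.91 and Slc17a8 from 1.14 to 1.16.

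In sorted material, the levels per kilobase of summed exons ran in another order. In nuclear D2 libraries, they were 4.92 ± 0.462 FPKM for Chat, 3.88 ± 0.414 for Slc17a8, 2.88 ± 0.338 for Lhx8, 1.04 ± 0.131 for Slc5a7, 0.492 ± 0.109 for Gbx2 and 0.160 ± 0.0915 for Slc18a3 (SD, n = 5). The ranges overlapped between Chat, Slc17a8 and Lhx8 as neighbours, and not below Lhx8. In whole cell D1 libraries, the same order held with overlap at every step, from 5.00 ± 1.92 FPKM for Chat to 0.296 ± 0.182 for Slc18a3 (SD, n = 8). In whole cell D2 libraries, Chat led at 6.22 ± 1.73 FPKM (SD, n = 6), and in nuclear D1 libraries at 3.18 ± 1.62 (SD, n = 6). Counts came from gene bodies, introns included, and were divided by exon length. In nuclear D2 libraries, mean counts were 0.868 (Slc18a3) to 2.24 (Chat) times the background expected from gene span. Per kilobase of span, mean levels there were 0.401 for Chat, 0.388 for Slc17a8, 0.332 for Gbx2, 0.299 for Lhx8, 0.230 for Slc5a7 and 0.160 for Slc18a3. Division by span thus put Gbx2 above Lhx8 and Slc5a7. The part of background in either order was not tested. Slc18a3, with the shortest span, made up a median of 2.03% of the Chat count in nuclear D2 and 27.9% in RiboTag D2 male libraries.

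**Figure D5:**
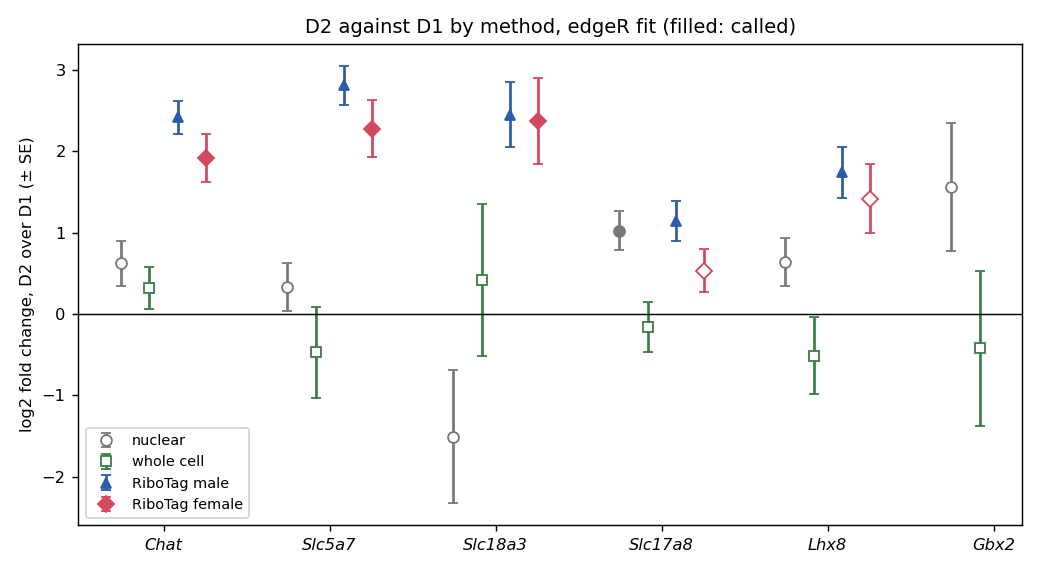
D2 to D1 log2 fold changes ± SE from edgeR for each member in the 4 comparisons. Filled symbols were called. RiboTag values of Slc18a3 and Lhx8 come from the fit that kept genes with 10 counts, and Gbx2, which passed neither filter in RiboTag, is not drawn there. RiboTag values of Chat and Slc5a7 lie near 2 or above, and whole cell values straddle 0.

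Methods were compared by the difference of their D2 to D1 differences in 1 fit over all male groups. Between RiboTag and whole cell-FACS, the difference was larger in RiboTag by 2.10 for Chat (SE 0.37, adjusted p = 0.00686) and by 3.34 for Slc5a7 (SE 0.65, adjusted p = 0.0183), beside 0.0836% of 29901 genes called larger. Lhx8 (2.26, SE 0.60, adjusted p = 0.20), Slc17a8 (1.33, adjusted p = 0.38), Gbx2 (2.49) and Slc18a3 (2.05) did not pass. With DESeq2's size factors, Slc5a7 was still called (adjusted p = 0.0463) and Chat was not (adjusted p = 0.0502), by edgeR in both cases.

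Between RiboTag and nuclear-FACS, the difference was larger in RiboTag by 1.77 for Chat (adjusted p = 0.00357), 2.49 for Slc5a7 (adjusted p = 0.0137) and 3.85 for Slc18a3 (SE 1.16, adjusted p = 0.0218), beside 12.9% of genes called larger. With DESeq2's size factors, which moved the share of larger among all calls from 88.7% to 75.7% and the median of all genes from -0.04 to -0.46, none of the 3 passed (adjusted p = 0.0708, 0.0753 and 0.0654 by edgeR). Between whole cell- and nuclear-FACS, Slc17a8 was called smaller in whole cell (-1.22, SE 0.39, adjusted p = 0.0256), beside 6.12% of genes called smaller, while the median over all genes was -0.33. With those size factors it was at -1.62 (adjusted p = 0.0178), the median at -0.74, and larger calls went from 72.1% to 48.2%. RiboTag male libraries serve in both RiboTag contrasts, so that these are not separate evidence.

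In RiboTag, most other genes of cholinergic neurons that were tested were higher in D2 males, and fewer passed in females. Of 9 further genes, 6 were tested in males, and Ecel1 (an endopeptidase-like enzyme, 1.87), Ngfr (the low-affinity neurotrophin receptor, 1.86), Zic1 (1.28) and Zic4 (1.25; both zinc finger factors) and Tacr1 (the substance P receptor, 1.10) were called higher in D2. Over all genes tested, 1.40% were called higher in D2 in males and 0.960% in females. In females, Slc10a4 (a vesicular transporter-like protein, 2.98), Ecel1 (1.54) and Tacr1 (0.72) were called, while Zic1 (0.49, adjusted p = 0.51 by edgeR) and Zic4 (0.36, adjusted p = 0.68 by edgeR) did not pass. Slc10a4 reached at most 0.210 CPM in D1 females and 1.07 CPM in D2 females. It thus passed the filter through D2 libraries, which favours a call higher in D2 and raises the list's median. Ngfr was tested in females with the 10-count filter and did not pass (1.64, adjusted p = 0.24 by edgeR). The median log2 fold change of the list was 1.26 in males and 0.60 in females, against 0.00 over all genes tested. Isl1, a LIM homeobox factor of striatal cholinergic neurons and of D1-MSN precursors, was called higher in D1 in males (-1.97, SE 0.19) and in females (-1.37, SE 0.21).

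Slc10a4 had 1 to 7 fragments (median 3) in D1 and 17 to 41 (median 24.5) in D2 males, without overlap. With the 10-count filter it was called at 2.98 (SE 0.30) in males. It met that count through D2 libraries alone. In nuclear libraries, Tacr1 (0.49, adjusted p = 0.045 by edgeR) was the 1 of 9 called, beside 5.60% of all genes higher in D2 and a median of 0.26, and with the 10-count filter it was not called (adjusted p = 0.0647 by edgeR). In whole cell libraries 0 of 9 were called by edgeR, with Isl1 at -1.92 (adjusted p = 0.0591). Nkx2-1 was not tested in RiboTag.

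Acetylcholine's breakdown and receptors gave a mixed picture. Of 24 genes, 12 were tested in RiboTag of each sex. Ache, the enzyme that splits acetylcholine, was called higher in D2 in males (0.42, SE 0.09, adjusted p = 0.00236) and females (0.51, SE 0.12, adjusted p = 0.019). Its counts were 72 to 138 (median 92.5) in D1 and 86 to 170 (median 135.5) in D2 males, which overlapped, while in CPM the groups did not (2.64 to 3.58 and 3.80 to 4.30). Chrm4, the muscarinic receptor of D1-MSNs, was called higher in D1 in males (-1.39, SE 0.14) and females (-1.06, SE 0.21).

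Chrm2, a muscarinic autoreceptor of cholinergic neurons, was lower in D2 males (-0.65, SE 0.16, adjusted p = 0.00916) and did not pass in females (-0.13, SE 0.26). The list's median log2 fold change was -0.01 in both sexes. In nuclear libraries, Chrna9 (1.70), Colq (1.46) and Chrna2 (1.31) were called higher in D2, and Chrm4 (-1.95), Chrm1 (-1.54), Ache (-1.53), Chrnb2 (-1.48) and Chka (-1.01) higher in D1. These were 3 and 5 of 24, beside 5.60% and 20.6% of all nuclear genes, so that the calls higher in D1 were near the background share. The list's nuclear median was 0.19, beside 0.26 over all genes, and in whole cell libraries 0 of 24 were called by edgeR and the median was 0.05.

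Most markers of other interneurons that passed the test were higher in D1 RiboTag libraries. Of 8 GABA interneuron genes, 5 were tested in RiboTag males, and Sst, Npy, Nos1 and Cck were called higher in D1 and none higher in D2, with a median of -0.77. Sst, Nos1 and Cck were called higher in D1 females, with a median of -1.03. Over all genes tested, 3.11% were called higher in D1 in males and 1.59% in females. With the filter of 10 counts, Th was called higher in D2 males, beside 1.19% of all genes, and 6 of the 8 genes higher in D1. The share of all genes higher in D1 with that filter is not given here. Their summed level was 24.8 to 27.6 CPM in D1 and 11.2 to 16.0 in D2 males. Of glial and vascular lists in RiboTag, the oligodendrocyte gene Mobp was among those called higher in D2 males, and Flt1 of 3 endothelial genes was higher in D1 females. The summed endothelial level was higher in D1 without overlap in males (0.600 to 1.52 CPM against 0.245 to 0.496) and in females (0.799 to 2.70 CPM against 0.340 to 0.642). The summed oligodendrocyte level was 20.3 to 30.6 CPM in D1 and 22.4 to 39.1 in D2 males. No astrocyte or microglia gene was called, with 1 of 5 tested on each list. The part of these cells in the members' values was not tested.

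By likeness over the 22 RiboTag libraries, among 11133 genes and with members left out, the 10 genes with the highest Pearson r to the mean log2 CPM of Chat and Slc5a7 were Ecel1 (0.95), Drd2 (0.94), Ndnf (0.94), A830012C17Rik (0.93), P2ry1 (0.93), Penk (0.93), Gpr6 (0.92), Nrxn2 (0.92), Rabgap1l (0.92) and Ttc12 (0.92). Drd2, Penk and Gpr6 are genes of D2-MSNs, and all 10 were higher in D2, by 0.54 to 4.75 on the log2 scale. The mean of Chat and Slc5a7 was itself higher in D2, so a high r favours genes higher in D2. Once group means were subtracted, a different set led, with Cd200 (0.86), Msantd4 (0.85), Ypel3 (0.83), Otub2 (0.81), Gmps (0.81), Tmem65 (0.80), Nap1l5 (0.80), Herc3 (0.77), Atp6v1e1 (0.77) and Tmem184c (0.77). None of the first 10 was in the second set, and there r was 0.32 for Drd2 and 0.34 for Penk. These are descriptions over libraries that share cell type and depth.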

How the data were processed

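The authors mapped reads of strand-specific libraries without ribosomal RNA to GRCm38 by HISAT2 2.0.5 and counted fragments with featureCounts, per the submitters' processing notes, and deposited a table of raw counts for 52636 genes. Their methods state counting over whole gene bodies, without strand, with fragments that overlap several genes counted for each and multi-mapped fragments left out. The 49 columns were grouped by name into 47 libraries, after a repeat of whole cell D1 number 1 and a further lane of whole cell D2 number 3 were summed with their first runs. Sample titles give 8 whole cell D2 samples, of which 6 had columns here. The labels state 1 mouse per sample.

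Counts were fitted with edgeR 4.0.16 (TMM, quasi-likelihood, Benjamini-Hochberg adjustment) in R 4.3.3, within each method. Genes above 1 CPM, scaled by size factors, in at least 2 libraries were kept, with DESeq2 1.42.0 as an alternative. Each SE was worked out from the fold change and its F statistic. The authors' own final FPKM filter was an alternative. Exact permutation tests, run in Python 3.11.15, were two-sided. The fit was tested on simulated data. Annotation came from GENCODE, which matched 52489 genes.

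The smallest level a library can show, taken as 3 counts, was 0.0436 to 0.811 CPM and covers counting error only. The members and lists were chosen with earlier results of these data known. The text names all 6 members, the listed genes called in at least 1 comparison with Ache, Chrm2 and Isl1, and genes by likeness. Nkx2-1 and the marker genes named one by one were chosen after their values were seen, as were the background estimates and the library sets left out together. Some genes of the lists are not reported here.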

Additional observations from a re-analysis of the deposited data

Results flagged for a closer look

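Over 48 groups of libraries, 4 had a member whose highest or lowest library stood apart (Dixon's ratio at the 95% level, which chance passes in about 1 of 20 groups). Slc5a7 had no fragment in whole cell D2 library 1 (ratio 0.779) and was lowest in nuclear D2 library 2, at 4.57 CPM (ratio 0.790). Slc18a3 had no fragment in nuclear D2 library 7 (ratio 0.918), and Gbx2 had 1 fragment in whole cell D1 library 6 (ratio 0.609).

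The D2 to D1 difference was called different between methods for 4 members by edgeR's interaction test. It was larger in RiboTag males than in nuclear libraries for Chat (1.77), Slc5a7 (2.49) and Slc18a3 (3.85), beside 12.9% of all genes. It was larger in RiboTag males than in whole cell libraries for Chat (2.10) and Slc5a7 (3.34), beside 0.0836% of all genes. For Slc17a8 it was lower in whole cell than in nuclear libraries (-1.22), beside 6.12% of all genes.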

How the results depend on the processing

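In RiboTag, Chat and Slc5a7 stayed called within each sex under every alternative but the FPKM filter over gene span. That filter kept 1 member (Slc18a3) in nuclear libraries and 0 in whole cell and RiboTag libraries, and 0 were called. Members called were 5 of 6 in nuclear libraries by DESeq2 and 3 with DESeq2's size factors, beside 13504 and 8002 of all 30791 genes. Members called were 1 to 2 there when a library was left out (2 without D1 library 6). They were 5 in RiboTag males with 10 counts, beside 1.19% of 14831 genes called higher in D2, and 5 over all RiboTag libraries with 10 counts. With no filter they were 5 in males and 4 in females. The shares of all genes over all RiboTag libraries and with no filter are not given here, so these counts cannot be set against them. With DESeq2's size factors, 0 members differed between RiboTag and nuclear libraries and 1 between RiboTag and whole cell libraries. The shares of all genes with those size factors are not given here.

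Genes called in nuclear libraries were 8082 in the report, 13504 by DESeq2 and 1475 with the FPKM filter. Leaving out a library gave 4081 (without D2 library 5) to 14605 (without D1 library 3), with 4477 without D2 library 1 and 5368 without D2 library 3. In whole cell libraries they were 35, 256 by DESeq2, 187 with the FPKM filter, 57 with the repeat as its own library, and 23 (without D1 library 1) to 50 with a library left out. In RiboTag males they were 481, 910 with no fold threshold and 263 with the FPKM filter, and in females 279, 183 with the FPKM filter and 495 with no filter. The causes were not tested.

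Shared replicate numbers did not pair the samples, with correlations of same-numbered libraries from -0.27 to 0.26. The replicate block gave 0 calls in nuclear libraries, members included, by edgeR (12976 genes had an unadjusted p under 0.05), 16 in whole cell, 460 in RiboTag male and 244 in RiboTag female libraries. Values that changed sign were none that had been called. They were Slc18a3 in whole cell with the block (-0.45), Slc17a8 in whole cell without D2 library 5 (0.0325) and without D2 libraries 1 and 5 (0.18), Gbx2 in whole cell without D2 libraries 1 and 5 (0.16), and Slc17a8 between RiboTag and nuclear libraries with DESeq2's size factors (-0.29). With a prior count of 0.25, all 24 permutation results kept their direction and side of 0.05. RiboTag counts of Gbx2 limit it to values near the floor of 3 counts.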
